A study of Mus musculus with 12 samples.

Results

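The imprinted noncoding genes between Dlk1 and Dio3 were followed in liver RNA from 12 mice, 6 of them WT and 6 Ppara KO. The gene set was the noncoding genes Rian, Meg3, Mirg, AF357425, AF357355, DQ267102 and Mir382 with the protein-coding genes Dlk1, Rtl1 and Dio3, and its members were every transcript cluster (a group of short probes summarised into 1 value) that the platform annotation pairs with any of these 10 genes. This gave 20 of the 41345 clusters of the array, 8 annotated to 1 gene and 12 annotated to several genes at once. Rian, Meg3, AF357425, AF357355, DQ267102, Mir382, Dlk1 and Dio3 had a cluster of their own, whereas Rtl1 and Mirg were measured only through clusters shared with microRNA genes. A shared cluster is called here by all of its genes, since its signal cannot be given to 1 of them. The genes were chosen with the difference between the genotypes in view, so that difference is described for them and not tested.

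All 12 animals were adult C57Bl/6 females, 12 to 14 weeks old, and each gave 1 liver array of total RNA (MoGene 2.0 ST, a 1-colour Affymetrix design). The groups differ in the labels only by genotype, WT or Ppara KO, and the labels name no treatment. Ppara encodes PPARα, a fatty acid-binding nuclear receptor of the liver. The sources used here do not state which part of Ppara the knockout removes, whether the WT mice were littermates, or the time of day and feeding state at collection.

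The Dlk1-Dio3 region is a cluster of imprinted genes, which are transcribed from the copy inherited from 1 parent. The paternal copy gives the protein-coding genes Dlk1, Rtl1 and Dio3. The maternal copy gives long noncoding RNAs, Meg3, Rian and Mirg, which carry box C/D small nucleolar RNAs (snoRNAs) in the introns of Rian and many microRNAs, and a methylated control element between Dlk1 and Meg3 sets which copy is used. The region is active in the embryo, placenta and brain, and Dlk1 is known as a gene of fetal liver that is shut down after birth.

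The deposited values are log2 expression values with array medians between 4.13 and 4.17. For reference, 7 genes of the Y chromosome, which female mice lack, had means between 1.94 and 4.74 in these arrays. Such a range shows how much signal probes can give without their transcript. Its top is Sry alone, at 4.77 in WT and 4.70 in Ppara KO. Uba1y followed at 3.10 and 3.26, and the means of the others were at or below 2.32. A value between Uba1y and Sry is therefore within the range only through Sry. Probes differ in brightness, so levels of different clusters are not ranked against each other. Ppara itself had a mean ± SD of 7.98 ± 0.16 over the 6 WT animals and 8.01 ± 0.13 over the 6 Ppara KO animals, a difference of 0.03 with a 95% interval of -0.15 to 0.21. The place of its probes relative to the disruption is unknown here, so this value does not check the labels.

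Some clusters of the maternally expressed noncoding genes were called higher in Ppara KO livers and others were not called. The clusters of Rian, of its intronic snoRNA genes AF357425 and AF357355 and of Meg3 with Mir770 or the Mir1906 genes were higher by 1.02 to 1.72 on the log2 scale. The cluster of Meg3 alone (-0.03) and the 3 clusters of Mirg (0.08 to 0.30) were not called, which does not show that they are unchanged. The differences of Dlk1 and Dio3, 0.04 and -0.03 on the log2 scale, were smaller than their errors. No fold of transcript is given for these genes, because most of their WT values lie within the signal range of the Y-linked clusters. There a low level cannot be told from none. For Rian, AF357425, AF357355, Dlk1 and the clusters of Meg3 alone and with the Mir1906 genes, the range covers the WT means only through Sry. The WT means of Meg3 with Mir770 (4.82) and of Mir134 with Mirg (4.97) lie above it. In whole liver, more cells that carry a transcript and more transcript per cell cannot be told apart. In a limma fit over the 23521 clusters annotated to 1 gene, 5 of the 8 such member clusters were called higher (adjusted p under 0.05) and 0 lower, beside 4.29% and 5.47% of all clusters, or 9.76% in either direction. At an unadjusted limma p under 0.05 the members gave the same counts of 5 and 0, beside 2602 higher and 2677 lower of all 23521 clusters. In 4 of the 8 the values of the 6 Ppara KO animals lay wholly above those of the 6 WT animals, beside 2.65% of all clusters (6.29% without overlap in either direction). Of the 12 shared clusters, 3 were called higher in a fit over all 41345 clusters, where 2.38% were, and 2 had no overlap, beside 2.01%. The contrast chose these genes, so nothing is read from the counts.

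**Figure D1:**
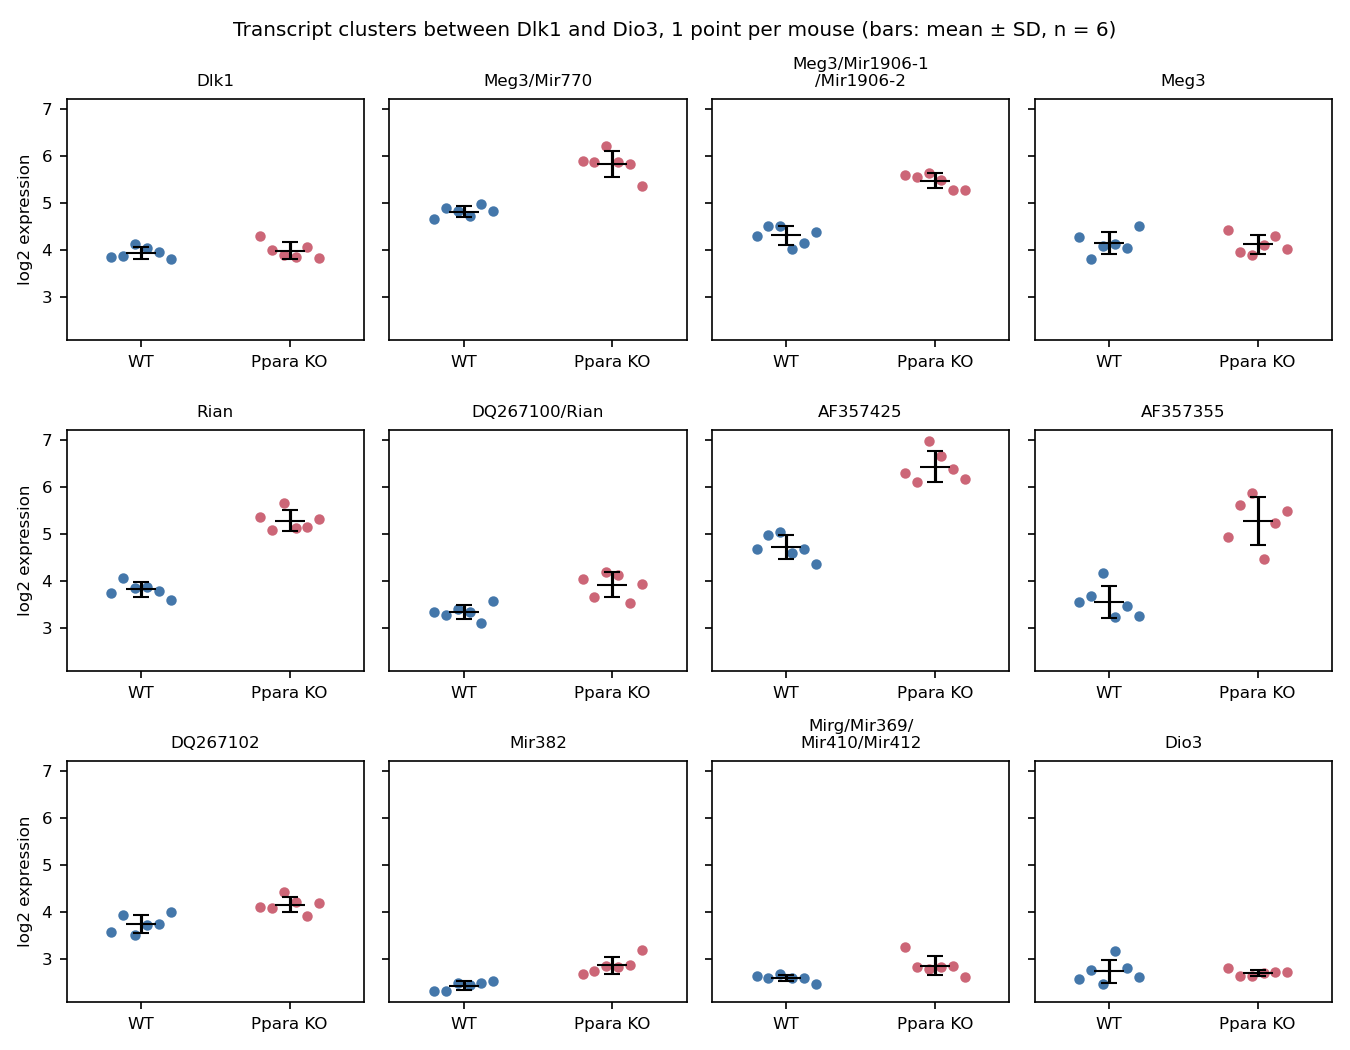
Log2 expression (y axis) of 12 of the 20 member clusters in WT and Ppara KO livers (x axis), with 1 point per mouse and bars for the mean ± SD of 6 animals. Rian, AF357425, AF357355 and both Meg3 clusters shared with microRNA genes sit higher in every Ppara KO animal than in any WT animal, and the genotypes overlap for Dlk1, Dio3 and the Meg3 cluster with 1 gene.

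Rian, a long noncoding RNA that hosts most of the region's snoRNAs, had log2 values of 3.75, 4.07, 3.84, 3.87, 3.79 and 3.60 in WT animals 1 to 6. In Ppara KO animals 1 to 6 it stood at 5.36, 5.09, 5.67, 5.12, 5.16 and 5.32. All 6 Ppara KO animals were above all 6 WT animals, with a gap of 1.02 between the groups. The group means ± SD (n = 6) were 3.82 ± 0.15 and 5.29 ± 0.22, a difference in signal of 1.46 (SE 0.103). The log2 values of WT animals fall within the range of the Y-linked clusters, between Uba1y and Sry, and the Ppara KO values above it. Rian held place 20 among the 23521 clusters in order of the difference in signal. That difference was in view when Rian was chosen, so nothing is read from the place. A further cluster annotated to Rian and to the snoRNA gene DQ267100 was at 3.34 ± 0.15 in WT and 3.91 ± 0.26 in Ppara KO, with 5 of 6 Ppara KO animals above the highest WT animal.

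The snoRNA genes AF357425, AF357355 and DQ267102 lie within the span of Rian in the RefSeq annotation. Box C/D snoRNAs guide methylation of other RNAs, and those of this region have no settled target in ribosomal RNA. AF357425 was at 4.68, 4.97, 5.05, 4.60, 4.69 and 4.35 in WT animals 1 to 6 and at 6.30, 6.11, 6.99, 6.66, 6.39 and 6.17 in Ppara KO animals 1 to 6. Its groups were apart by 1.06, and the difference was 1.72 (SE 0.149). Its WT mean of 4.72 was just inside the range of the Y-linked clusters, whose top is Sry alone.

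AF357355 was at 3.54, 3.67, 4.17, 3.23, 3.47 and 3.25 in WT and at 4.93, 5.62, 5.88, 4.47, 5.24 and 5.49 in Ppara KO, again in the order of the animal numbers. It was the most variable of these clusters, with SDs of 0.35 and 0.51 against median SDs of 0.157 and 0.158 over all clusters in WT and Ppara KO. The groups still did not overlap, but the gap was 0.30, between WT animal 3 and Ppara KO animal 4, and the difference was 1.72 (SE 0.212). In order of the difference, which was in view when they were chosen, AF357425 and AF357355 held places 9 and 10 of 23521.

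DQ267102 showed a smaller difference. It was at 3.57, 3.94, 3.50, 3.71, 3.74 and 3.99 in WT and at 4.11, 4.09, 4.42, 4.20, 3.92 and 4.19 in Ppara KO. Only Ppara KO animal 5 fell within the WT range. All 12 values lie within the range of the Y-linked clusters, between Uba1y and Sry. The difference of 0.41 (SE 0.100) dropped to 0.28 and lost its call without WT animals 1, 3 and 5, the animals with the highest adipocyte marker levels. Tandem copies of these snoRNAs resemble each other, and whether a probe also matches a neighbouring copy was not checked.

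The other snoRNA genes of the region with clusters of their own were AF357426 and DQ267101, the latter with 2 clusters. AF357426 differed by 0.34 (SE 0.118), and DQ267101 by 0.35 (SE 0.132) and 0.17 (SE 0.117), without a call. Of these 3 clusters, chosen by place, 0 were called, where 4.29% of all clusters rose, and their median difference was 0.344. The 3 called snoRNA clusters of the region are the members, chosen with the contrast in view. All 6 snoRNA clusters had a positive difference (median 0.380), beside 12393 of all 23521 clusters. Since members are among the 6, nothing is read from that count.

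Meg3, the long noncoding RNA at the start of the maternal transcripts, was annotated to 3 clusters that did not move together. The cluster annotated to Meg3 and Mir770 was at 4.65, 4.90, 4.83, 4.72, 4.97 and 4.83 in WT and at 5.89, 5.87, 6.22, 5.87, 5.84 and 5.36 in Ppara KO, a difference of 1.02 (SE 0.118). The cluster annotated to Meg3, Mir1906-1 and Mir1906-2 was at 4.30, 4.50, 4.52, 4.02, 4.15 and 4.38 in WT and at 5.60, 5.56, 5.64, 5.49, 5.28 and 5.27 in Ppara KO, a difference of 1.16 (SE 0.103). In both, every Ppara KO animal was above every WT animal. Mir1906-2 is not among the RefSeq genes from Dlk1 to Dio3, so the second cluster is annotated partly to a place outside the region. How much of its signal comes from Meg3 was not tested.

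The cluster annotated to Meg3 alone gave another picture. It was at 4.27, 3.81, 4.09, 4.13, 4.05 and 4.51 in WT and at 4.43, 3.96, 3.89, 4.11, 4.29 and 4.02 in Ppara KO, and the genotypes overlapped. Its difference was -0.03 (SE 0.116), and the 95% interval of -0.28 to 0.22 does not reach the difference of either shared cluster. It was 0.04 without WT animal 6, 0.02 without Ppara KO animal 3 and 0.00 without Ppara KO animal 2. The exons, introns or strand that each cluster covers are not stated in the sources used here. In the numbering of the array this cluster stands beside that of Rtl1 and Mir3071, a microRNA gene of the minus strand. The cluster of Meg3 and Mir770 stands among plus-strand microRNA genes, as Meg3 itself is. Some plus-strand microRNA genes, such as Mir409, also have a cluster beside the former. Whether the cluster of Meg3 alone reads Meg3 or the opposite strand was not tested.

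The RefSeq promoter windows of Meg3 and Rian, 300 bases that end shortly after the annotated start in GRCm38.p6, are shown because both genes head clusters that were higher together. They are chr12:109540746-109541045 for the upstream start of Meg3 and chr12:109603695-109603994 for Rian, both on the plus strand, and capitals mark the motif TGACGTCA.
Meg3: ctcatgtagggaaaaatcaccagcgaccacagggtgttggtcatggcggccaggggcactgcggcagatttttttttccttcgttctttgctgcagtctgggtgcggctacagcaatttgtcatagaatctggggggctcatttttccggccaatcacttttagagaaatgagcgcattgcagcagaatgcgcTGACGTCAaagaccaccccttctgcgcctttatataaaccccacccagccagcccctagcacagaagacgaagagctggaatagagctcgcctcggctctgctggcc
Rian: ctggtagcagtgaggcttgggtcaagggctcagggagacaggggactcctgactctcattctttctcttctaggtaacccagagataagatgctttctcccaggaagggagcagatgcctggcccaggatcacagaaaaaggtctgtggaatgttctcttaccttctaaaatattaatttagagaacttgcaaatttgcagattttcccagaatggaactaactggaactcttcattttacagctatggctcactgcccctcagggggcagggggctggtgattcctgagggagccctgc
The motifs searched on both strands were the cAMP response element TGACGTCA, the E-box CACGTG and the canonical PPAR response element, the direct repeat bound by PPARα with RXR. TGACGTCA occurred 1 time in this Meg3 window and in 1.79% of the 32851 windows of the table. The Rian window did not hold it. CACGTG, found in 7.15% of all windows, and the PPAR response element, found in 0.0396%, matched neither window. A match or its absence describes these letters only.

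The microRNA clusters of the region read the hairpin genes, not the mature products, and most were dim. Mir382, a hairpin gene upstream of Mirg, was at 2.30, 2.31, 2.49, 2.43, 2.48 and 2.52 in WT and at 2.68, 2.74, 2.84, 2.83, 2.87 and 3.19 in Ppara KO. The groups did not overlap, with a gap of 0.15, and the difference was 0.43 (SE 0.085), with all 12 values within the range of the Y-linked clusters. Its value without WT animals 1, 3 and 5 was 0.44, without a call.

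Clusters shared by Mirg, the microRNA host transcript, were not called. The cluster of Mirg with Mir369, Mir410 and Mir412 was at 2.59 ± 0.07 in WT and 2.85 ± 0.21 in Ppara KO, and 5 of 6 Ppara KO animals exceeded the highest WT animal. The cluster of Mir134 and Mirg differed by 0.30 (SE 0.144), and that of Mir485 and Mirg by 0.08 (SE 0.109).

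Of the other 46 microRNA clusters between Dlk1 and Dio3, chosen by place and not by value, 5 rose and 0 fell (10.9% where 4.29% of all clusters rose). At an unadjusted limma p under 0.05 the counts were 8 higher and 1 lower, beside 2602 and 2677 of all 23521 clusters. The median difference of the 46 was 0.072, beside 0.010 over all clusters. Mir493 was at 2.48 ± 0.18 in WT and 2.99 ± 0.31 in Ppara KO, Mir323 at 2.17 ± 0.23 and 2.66 ± 0.24, and Mir679 at 3.73 ± 0.23 and 4.18 ± 0.15. Mir667 was at 4.40 ± 0.27 and 4.84 ± 0.12, and Mir377 at 1.95 ± 0.18 and 2.29 ± 0.11. In each of these 5 the groups overlapped, and the means of all but Mir667 in Ppara KO lie within the range of the Y-linked clusters. Of the 51 clusters of the region that are no members, 0 were called with an adjusted p under 0.01, and 1 was called without WT animals 1, 3 and 5. The microRNA clusters Mir673, Mir666 and Mir1188, whose signal lies above that range, had differences of 0.06 (SE 0.098), -0.09 (SE 0.095) and 0.15 (SE 0.082) without a call. Among 459 microRNA clusters outside the region, 9 rose and 10 fell.

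The mature sequences of the 6 microRNA genes with a called cluster are printed from RefSeq (GRCm38.p6, plus strand of chromosome 12) to show that their seeds differ, and capitals mark the seed, bases 2 to 8. From the first to the last mature base they lie at chr12:109580243-109580305 (Mir493), chr12:109712523-109712578 (Mir323), chr12:109715587-109715645 (Mir679), chr12:109720020-109720083 (Mir667), chr12:109733781-109733840 (Mir382) and chr12:109740515-109740574 (Mir377).
miR-382-5p: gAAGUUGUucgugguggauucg
miR-382-3p: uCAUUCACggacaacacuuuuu
miR-493-5p: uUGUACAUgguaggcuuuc
miR-493-3p: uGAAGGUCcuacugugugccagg
miR-323-5p: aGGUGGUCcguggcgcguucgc
miR-323-3p: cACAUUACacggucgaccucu
miR-679-5p: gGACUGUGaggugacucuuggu
miR-679-3p: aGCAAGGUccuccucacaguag
miR-667-5p: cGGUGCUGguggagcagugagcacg
miR-667-3p: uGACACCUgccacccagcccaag
miR-377-5p: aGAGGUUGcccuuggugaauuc
miR-377-3p: aUCACACAaaggcaacuuuugu
None of these 12 seeds occurred in another mature microRNA of the region. RefSeq lists 113 mature microRNAs here with 104 different seeds, and 9 seeds were shared by pairs such as miR-379-3p and miR-411-3p.

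The paternally expressed genes were not called. Dlk1, which encodes a transmembrane protein related to Notch ligands, was at 3.84, 3.86, 4.13, 4.05, 3.96 and 3.80 in WT and at 4.30, 3.99, 3.88, 3.85, 4.06 and 3.82 in Ppara KO. The difference was 0.04 with a 95% interval of -0.15 to 0.23, and it became -0.02 without Ppara KO animal 1. Dio3, the deiodinase that inactivates thyroid hormone, was at 2.57, 2.76, 2.45, 3.17, 2.81 and 2.60 in WT and at 2.79, 2.63, 2.64, 2.69, 2.72 and 2.71 in Ppara KO. Its difference was -0.03 with an interval of -0.24 to 0.19, and 0.06 without WT animal 4. The values of both genes lie within the range of the Y-linked clusters, those of Dlk1 between Uba1y and Sry. Low transcript levels could therefore not be told from none.

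Rtl1, a gene derived from a retrotransposon and needed in the placenta, shared each of its 6 clusters with microRNA genes, several of which are transcribed from the strand opposite to it. Their differences ran from -0.06 (SE 0.106), for the cluster with Mir431, to 0.17 (SE 0.076), for the cluster with Mir3071. In the limma fit over all clusters 0 of the 6 were called, and their 95% intervals all ended at or below 0.39.

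**Figure D2:**
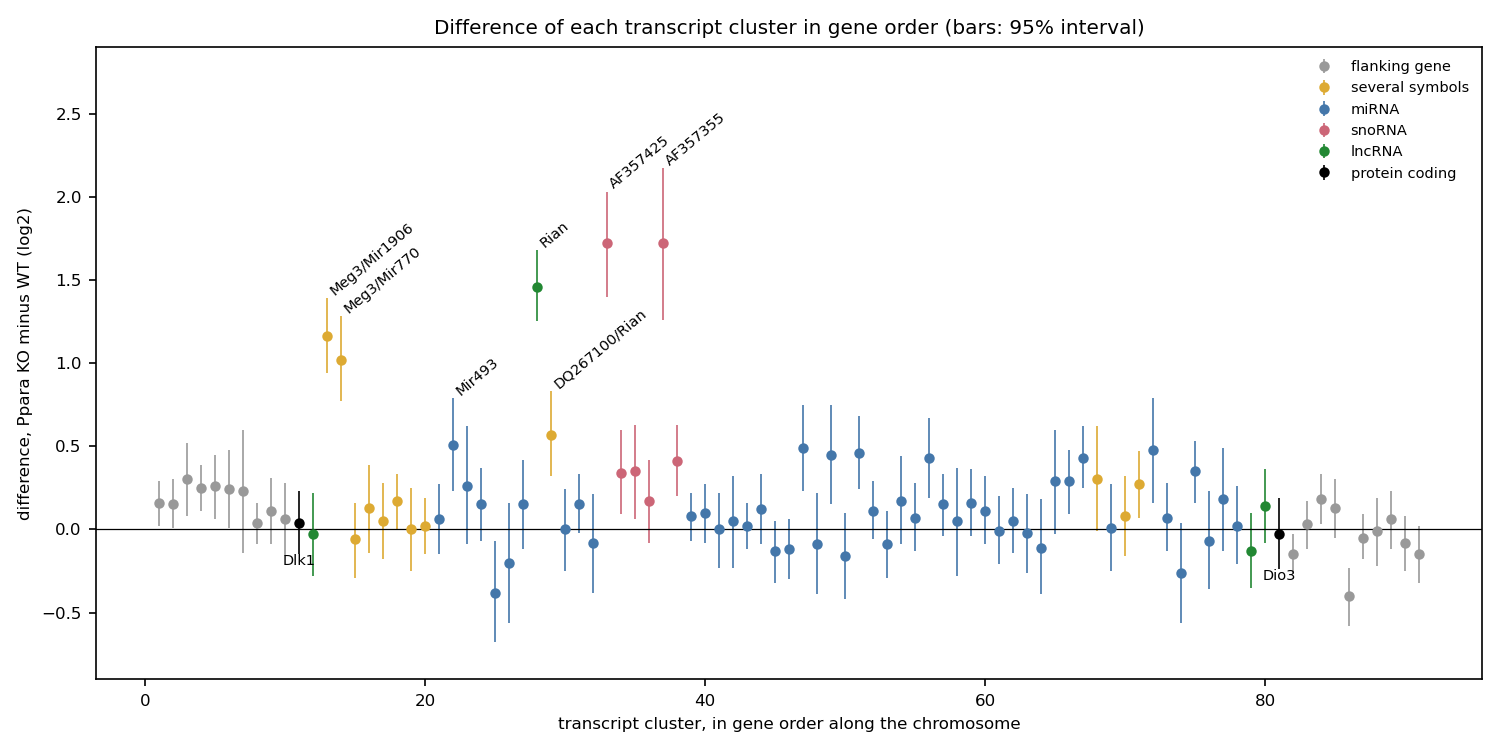
Difference between Ppara KO and WT (y axis, log2, bars for the 95% interval) of each cluster from 10 genes before Dlk1 to 10 genes after Dio3 (x axis, gene order), coloured by the kind of gene. The clusters of Meg3 shared with microRNA genes, Rian, AF357425 and AF357355 stand between 1.02 and 1.72, and Dlk1 and Dio3 at both ends of the region lie at 0.04 and -0.03.

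Set in gene order, the differences above 1 lay in the stretch from Meg3 to the end of Rian, where the cluster with the Mir1906 genes was placed by Meg3. Besides the members, 51 clusters annotated to 1 gene lie between Dlk1 and Dio3. Of these 5, all microRNA genes named above, rose and 0 fell, where 4.29% of all clusters rose and 5.47% fell. At an unadjusted limma p under 0.05 the counts were 10 higher and 1 lower, beside 2602 and 2677 of all 23521 clusters. Dio3os, a noncoding gene beside Dio3, differed by 0.14 (SE 0.102). Among the 10 measured genes before Dlk1 only Yy1, a transcription factor gene, rose, by 0.25 (SE 0.066). All 10 differences were positive, beside 12393 of all 23521 clusters, with a median of 0.194. In 6 of the 10 the unadjusted limma p was under 0.05. Among the 10 after Dio3 only Hsp90aa1, a heat shock protein gene, fell, by 0.40 (SE 0.081), and the median was -0.031.

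Of 76 snoRNA clusters outside the region with different values, 21 rose, 0 fell and 55 were not called, where 4.29% of all clusters rose and 5.47% fell. At an unadjusted limma p under 0.05 the counts were 37 higher and 3 lower, beside 2602 and 2677 of all 23521 clusters. In 58 of the 76 the difference was positive, with a median difference of 0.250 beside 0.010 over all clusters. Taken by symbol, 16 of 47 Snord clusters outside the region, of the box C/D class, rose, for example Snord16a by 0.78 (SE 0.135) and Snord69 by 0.71 (SE 0.103). Of 28 Snora clusters, of the box H/ACA class, 5 rose. In these sets by symbol identical values were not merged, so they need not be subsets of the 76. The differences furthest below 0 were -1.15 (SE 0.366) for Snord13, -0.47 (SE 0.163) for Snora73a and -0.38 (SE 0.124) for Snora73b, without a call. With an adjusted p under 0.01, 8 Snord clusters rose, and 2 with treat against a 1.2-fold change. The mean of the 47 Snord clusters ranged from 6.78 to 7.23 over WT animals and from 7.22 to 7.39 over those of Ppara KO, so WT animal 1 touched the Ppara KO range. In order of the difference among 82 snoRNA clusters, AF357425 and AF357355 came before the others and DQ267102 held place 18. Snord1b, next after AF357425 and AF357355, differed by 0.86 (SE 0.182). These members were chosen with this difference in view, so nothing is read from their places. Whether the rise of snoRNAs elsewhere has a part in the values of the region was not tested.

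**Figure D3:**
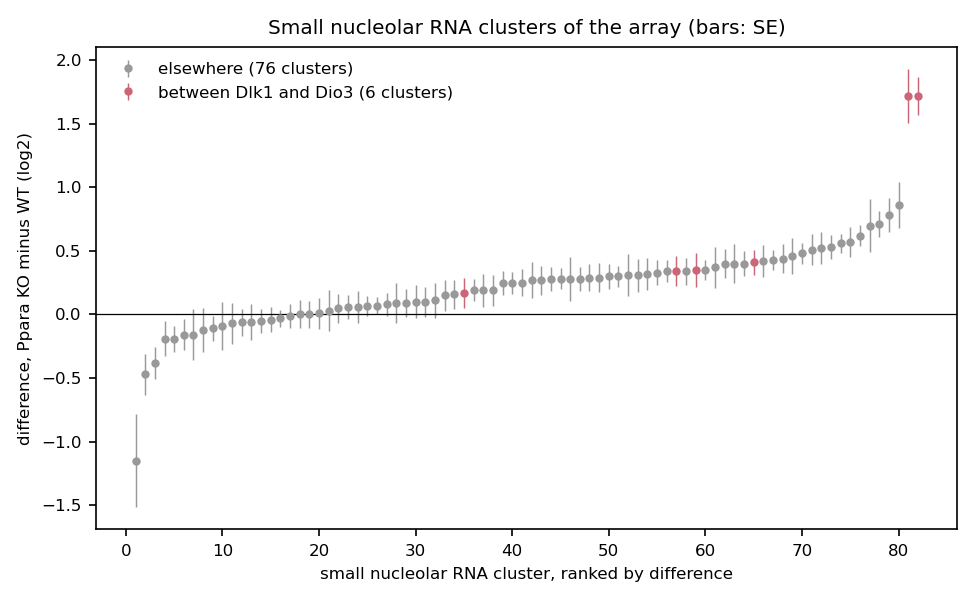
Difference between Ppara KO and WT (y axis, log2, bars for the SE) of 82 snoRNA clusters with different values, ranked from low to high (x axis). AF357425 and AF357355, both at 1.72, rank above Snord1b at 0.86, and the remaining 4 clusters of the region lie among those from elsewhere. AF357425, AF357355 and DQ267102 were chosen with this difference in view, so nothing is read from their ranks.

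Whether the members vary together was examined over animals within each genotype, which leaves the difference between genotypes out. With Rian, AF357425 had r = 0.75 in WT (n = 6, exact permutation p = 0.0931) and rho = 0.54 (exact p = 0.297), and r = 0.62 (exact p = 0.189) and rho = 0.49 (exact p = 0.356) in Ppara KO. Without the 2 animals farthest from the Rian median, WT 2 and 6 or Ppara KO 2 and 3, r was 0.16 and -0.82. Leaving them out also narrows the spread of Rian itself, so these values do not settle whether a relation exists. AF357355 had r = 0.36 (n = 6, exact permutation p = 0.464) and 0.51 (exact p = 0.308), with rho = 0.26 in both (exact p = 0.658), and r of 0.02 and 0.48 without those animals. DQ267102 had r = 0.01 (n = 6, exact permutation p = 0.990) in WT and 0.75 (exact p = 0.121) in Ppara KO, with rho of -0.14 (exact p = 0.803) and 0.49 (exact p = 0.356), and r of 0.14 and 0.24 without those animals. With 6 animals no p can go below 0.00278, and adjusted over the 23520 clusters compared with Rian in each genotype these values were 0.997 or above.

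The cluster of Meg3 alone ran against Rian in WT, with r = -0.95 (n = 6, exact permutation p = 0.0194, adjusted 0.997) and rho = -0.77 (exact p = 0.103), but r = -0.55 without WT 2 and 6. In Ppara KO its r was -0.26 (n = 6, exact permutation p = 0.619) and its rho -0.03 (exact p = 1.0), with r = 0.24 without Ppara KO 2 and 3. Over the 19 member clusters compared with Rian in each genotype, this was 1 of the 2 with an unadjusted p for r under 0.05.

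The other was the cluster of Rtl1, 6430411K18Rik, Mir433 and Mir127, with r = -0.80 (n = 6, exact permutation p = 0.0472) and rho = -0.66 (exact p = 0.175) in Ppara KO, a shared cluster left out of that adjustment. Its r was -0.11 without Ppara KO 2 and 3.

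**Figure D4:**
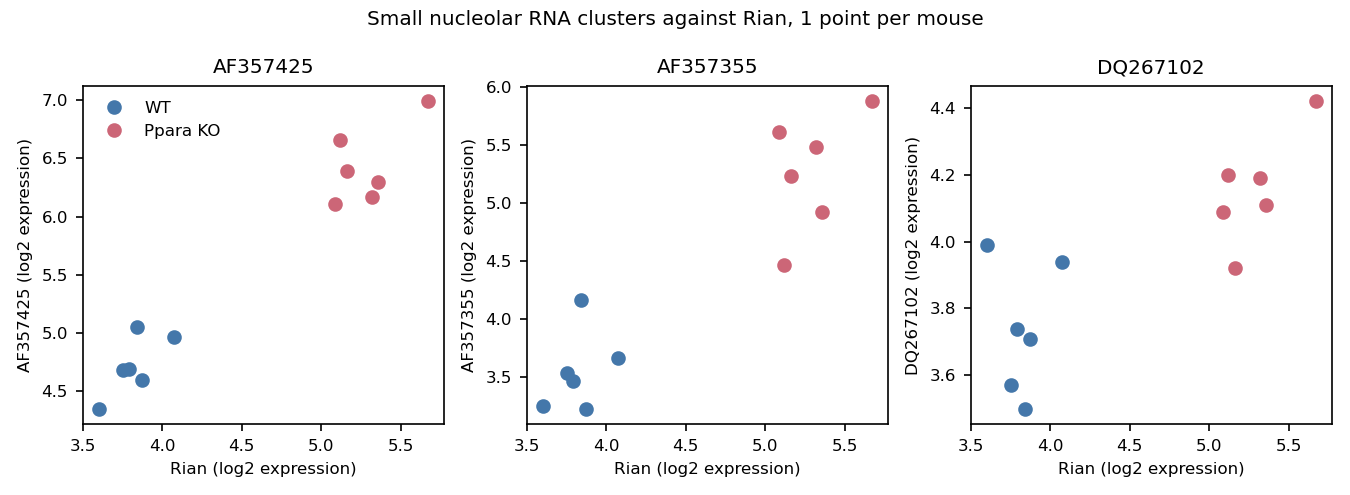
Log2 expression of AF357425, AF357355 and DQ267102 (y axes) against that of Rian (x axes), with 1 point per mouse, WT in blue and Ppara KO in red. The genotypes form separate groups for AF357425 and AF357355, and within a group the points scatter without a firm order, as for DQ267102 in WT (r = 0.01).

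A limma fit of each cluster on genotype and on the deviation of Rian from its genotype mean called 0 of 23520 clusters (0.00%), while 1076 (4.57%) had an unadjusted p under 0.05. By the correlation of deviations over the 12 animals, the clusters most like Rian were Ngb, Lgi1, Tm9sf4, DQ267101, Gm6410, Rnmt, Cyp46a1, 4933430I17Rik, Mgat4c and Prl7d1, with values from 0.83 to 0.88. Of these 10, DQ267101, a snoRNA gene within Rian, held rank 4 with 0.85 in 1 of its 2 clusters, and Cyp46a1 was the single 1 called between the genotypes. AF357425 was at rank 298 with 0.66, AF357355 at rank 1826 with 0.46 and DQ267102 at rank 2794 with 0.40. Mir382 (-0.10), Dlk1 (0.04) and Dio3 (0.17) were near 0. The least alike were Tvp23a, Mndal, Tppp2, Ankrd33 and ND2, from -0.95 to -0.86.

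Ppara KO animal 3 was the highest of its genotype in 7 of the 8 member clusters called higher, Mir382 being the exception with Ppara KO animal 6. The same animal also had the highest mean of Snord clusters from elsewhere, 7.39. Without it the differences were 1.39 for Rian, 1.61 for AF357425, 1.59 for AF357355 and 0.36 for DQ267102, and the calls of all 5 clusters annotated to 1 gene stayed. In WT the highest animal changed from cluster to cluster, with at most 3 of the 8 for WT animals 3 and 6.

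Among imprinted genes of other regions the called ones went both ways, where 4.29% of all clusters rose and 5.47% fell. Of 20 maternally expressed genes 1 fell, Blcap (-0.51, SE 0.103), and of 27 paternally expressed genes 2 rose and 3 fell. Mest, a hydrolase-related gene, fell by 0.64 (SE 0.076), Peg3, a zinc finger gene, by 0.64 (SE 0.150) and Dhcr7 by 0.39 (SE 0.095), while Inpp5f (0.41, SE 0.090) and Slc38a4 (0.26, SE 0.065) rose. Median differences were 0.015 and 0.035, beside 0.010 over all clusters. Of 17 genes that set or keep DNA methylation and imprints 2 fell, the methyltransferase gene Dnmt3b by 0.93 (SE 0.158) and the demethylation gene Tet2 by 0.29 (SE 0.070), and their median was 0.034.

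Hosts and partners of small RNAs moved as follows, where 4.29% of all clusters rose and 5.47% fell. Of 17 genes listed here as snoRNA hosts elsewhere 6 rose, and the median was 0.216. Among the 6 were Snhg11 (0.81, SE 0.100), Nop56 (0.39, SE 0.085) and Tnpo1 (0.32, SE 0.065). Whether each listed gene hosts a snoRNA was not checked, Tnpo1 included. Of 6 core box C/D proteins Nop56 rose, which is on both lists. Of 9 microRNA processing genes limma called 0, with 1 higher at an unadjusted p under 0.05. Of all 23521 clusters, 2602 were higher and 2677 lower at that unadjusted threshold. Among 14 genes of the Notch pathway, to which DLK1 is related, Notch1 fell by 0.48 (SE 0.081). Of 8 genes of deiodination and thyroid hormone response Thrsp (0.93, SE 0.128) and Slc16a10, a transporter gene (0.39, SE 0.110), rose and Thra, a receptor gene, fell by 0.35 (SE 0.095).

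Other measures differed between the same groups, and the counts below stand beside 4.29% of all clusters that rose and 5.47% that fell. Counts at an unadjusted limma p under 0.05 stand beside 2602 higher and 2677 lower of all 23521 clusters. Circadian clock genes were called in 15 of 17 members, 11 higher and 4 lower: Npas2, a clock activator gene, fell from 7.72 ± 0.12 to 4.24 ± 0.20, and Tef (2.21, SE 0.106) and Per3 (3.04, SE 0.155) rose. Clock state and genotype cannot be told apart here. Of 8 adipocyte markers 3 fell, 7 were lower at an unadjusted limma p under 0.05 and 0 had a positive difference, with a median of -0.786 and a mean over the list of 5.52, 6.32 and 6.35 in WT animals 1, 3 and 5, of 4.68 to 5.01 in the other WT animals and of 4.47 to 4.76 in Ppara KO. Of 15 markers of stellate cells and fibroblasts limma called 0 (1 higher and 4 lower at an unadjusted p under 0.05), with mean levels between 6.69 and 7.06 in WT and between 6.67 and 6.84 in Ppara KO. Of 12 lymphocyte and neutrophil markers 1 rose, Cd8a, and limma called 0 of 3 erythroid and 0 of 8 neuroendocrine and pancreas markers, also at an unadjusted p under 0.05. Of 12 endothelial markers 1 fell, Emcn, of 12 macrophage markers 1 rose, Cd5l, and of 5 bile duct markers 2 fell, Krt19 and Sox9. Hepatocyte markers averaged 11.26 to 11.40 over WT animals and 11.29 to 11.40 over Ppara KO animals, and 2 of 12 rose. The list of fetal liver genes, Dlk1 and Igf2 among them, had 0 of 7 called by limma (0 higher and 1 lower at an unadjusted p under 0.05) and mean levels of 3.94 to 4.08 and 3.92 to 4.05. The part of cell composition in the values of the region was not tested.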

How the data were processed

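Liver RNA of 6 WT and 6 Ppara KO mice was hybridised to 1 array per animal. The deposited values are log2 expression values that the authors made with RMA (background correction, normalization between arrays, probe summary) and Partek, per the submitters' processing notes, without versions. RMA gives arrays a common distribution and understates differences of dim clusters, and precision is limited by how many arrays there are. The platform annotation listed 25335 of 41345 clusters, 23521 with 1 gene symbol, 1814 with several and the rest unnamed here. Gene order came from RefSeq (GRCm38.p6), in which 23328 of the 23521 were found by Entrez identifier. Annotation build and probe positions are not given in the sources used here.

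Clusters with 1 symbol were fitted with limma 3.58.1 in R 4.3.3 (lmFit, eBayes, 2-sided, genotype means only), with Benjamini-Hochberg adjustment and calls at 0.05. Shared clusters come from the same fit over all clusters, and differences are Ppara KO minus WT in log2 units. Groups came from the sample titles. Correlations with Rian used exact permutations within a genotype. Both fits were also run on simulated data with planted effects and independent normal noise. The outcome is not given here, so nothing is read from it about weak relations to Rian. Identical snoRNA clusters (17 of 91 outside the region) were counted 1 time per set of values, except in the Snord and Snora counts by symbol. The members and gene lists were chosen with earlier results of these data known, and the Y-linked list was added after values were seen. Named were all members, Ppara, called genes of the region with the 3 uncalled of highest signal, the 10 clusters most and 5 least like Rian, and the called genes of each list with the smallest p, up to 3 of them. Further genes, the snoRNA examples and the neighbours Dio3os, Yy1 and Hsp90aa1 were named after their values were seen. Alternatives covered the prior, weights, scaling, filters, thresholds, the replicate number and animals left out.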

Additional observations from a re-analysis of the deposited data

Results flagged for a closer look

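In 3 of the 40 sets of 6 animals (20 member clusters in 2 genotypes), 1 animal lay far from the others by Dixon's criterion, where chance gives about 1 in 20. WT animal 1 was at 4.89 in the cluster of Rtl1 and Mir431, and the next animal was at 4.49. WT animal 3 was at 3.04 in the cluster of Rtl1, 6430411K18Rik, Mir433 and Mir127, and the next was at 2.82. Ppara KO animal 1 was at 3.24 in the cluster of Mirg, Mir369, Mir410 and Mir412, and the next was at 2.84. None of the 5 clusters with 1 gene that were called higher had such an animal.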

How the results depend on the processing

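The differences of Rian, AF357425 and AF357355 kept their direction and call in all 17 settings that changed weights, scaling, the replicate block or the animals. They stayed within 1.39 to 1.51, 1.61 to 1.80 and 1.59 to 1.89. Other priors, filters and thresholds were followed only as counts of called clusters, given below for some of them. Leaving out 1 animal gave ranges of -0.02 to 0.08 for Dlk1, -0.08 to 0.06 for Dio3 and -0.09 to 0.04 for the cluster of Meg3 alone, so the signs of these 3 clusters are not settled. Over all clusters the 2296 calls became 1825 to 2147 without 1 animal, 1066 at an adjusted p under 0.01, 333 with treat against 1.2-fold and 1003 without WT animals 1, 3 and 5. The 5 called member clusters stayed 5 without any 1 animal, and became 3 with treat, 3 without WT animals 1, 3 and 5, and 2 with clusters at or above the median level, a filter that only 2 of the 8 passed. The 5 called among the other clusters of the region were 4 to 6 without 1 animal, 0 at an adjusted p under 0.01, 0 with treat, 2 without a moderated variance, 1 without WT animals 1, 3 and 5, and 2 with clusters at or above the median level, which 9 of the 51 passed. Beyond fewer clusters or animals, the causes were not tested. The relation to Rian called 0 clusters in every setting, also with the cluster of Meg3 alone in its place. The shared Meg3 clusters were not used in this way. Snord clusters elsewhere, an alternative chosen after seeing the data, gave 2 to 23 rises and at most 1 fall.

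Same-numbered animals did not deviate together (correlations of -0.0447 to 0.0391), so no strong pairing by number was seen. A weak pairing could be missed with so few animals. The replicate block gave 1656 calls over all clusters, 5 of the 8 members and 4 of the 51.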
